A study of Mus musculus with 48 samples.

Results

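The step from embryonic day 10 (E10) to embryonic day 11 (E11) of mouse hypothalamic development was examined in the 4 arrays labelled E11 and the 4 labelled E10, which are 8 of the 48 arrays of the series. Arrays were chosen by their age label alone. Each age held a female and a male sample of C57Bl/6, an inbred strain, and a female and a male sample of CD-1, an outbred stock, so each combination of age, strain and sex had 1 array. The labels name no mutation, transgene or treatment in either strain. The tissue was the hypothalamus and preoptic area, microdissected into an RNA preservative. Total RNA was amplified in a single round from an oligo-dT primer and hybridised to Affymetrix MOE430 arrays. Nothing in the labels says how many embryos stand behind an array or that the arrays came from separate litters. The p-values therefore measure only the spread between these arrays, which may be partly technical. The comparison asks which genes changed as the first hypothalamic neurons appear, and whether each change was seen in both strains.

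At this stage the primordium is a sheet of dividing neuroepithelial cells. Proneural transcription factors of the basic helix-loop-helix family push single cells out of the cycle, and these cells display the ligand Dll1, which activates Notch receptors on their neighbours and keeps those neighbours dividing. A cell that has left the cycle switches on genes for the neuronal cytoskeleton, such as Dcx and Map2, and for RNA-binding proteins of the Elavl family. Regional transcription factors such as Otp, Nkx2-1 and Six3 divide the primordium into territories, many of them under the influence of Shh, the morphogen made along the ventral midline.

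Values are MAS5 signal, the array maker's summary of the probes of a gene, on a linear scale. Each gene stands for its probe set with the highest mean, and 14166 genes had a mean of at least 5.5 on the scale of log2(signal + 16) over the 8 arrays and were tested. The trimmed mean was the same in every array, but the medians were not equal. In C57Bl/6 it was 50.6 (female) and 51.7 (male) at E10 and 90.5 and 77.5 at E11, while in CD-1 it was 48.9 and 66.3 at E10 and 67.0 and 52.3 at E11. The medians of the C57Bl/6 arrays thus shifted with age, and those of CD-1 overlapped between the ages. Identical values were shared at most once between any pair of the arrays. The ratio of the 3′ to the 5′ probe sets of beta-actin, a measure of how complete the labelled RNA was, ran from 1.39 to 2.20 in C57Bl/6 and from 1.05 to 1.13 in CD-1. Sex-linked genes matched the sex labels. The label of the tissue was set against its markers. Among genes of the hypothalamic and preoptic primordium, Six3 ranged from 118 to 781 over the 8 arrays, Six6 from 84.3 to 593, Foxd1 from 424 to 1378, Fezf1 from 45.03 to 287, Rax from 25.3 to 134 and Nkx2-1 from 8.16 to 147. The lowest Nkx2-1 value, in the C57Bl/6 E10 female, lay below the signal of 11.9 under which 20% of that array's probe sets fell. Sox2 (686 to 3140), Nes (424 to 1340) and Vim (3582 to 5794), genes of neuroepithelium, were high in all 8 arrays.

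Changes are given below as differences of log2(signal + 16), E11 minus E10, with the standard error (SE) of a limma fit. Folds come from the same scale, so the added 16 makes those of dim genes too small. Genes were called where the Benjamini-Hochberg adjusted p, computed across the 14166, was under 0.05. A change held in both strains when it was called in each strain and had the same sign in all 4 matched pairs, a pair being the E11 and the E10 array of the same strain and sex. "Rose" and "fell" are used of called changes. In bulk tissue, a change in the number of cells that express a gene and a change in RNA per cell cannot be told apart.

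The 2 strains gave very different counts. Within C57Bl/6, 2590 genes (18.3% of those tested) rose and 2501 (17.7%) fell, and 3269 of them changed at least 2-fold. Within CD-1, 1 gene was called (0.00706%), and 373 (2.63%) lay higher and 201 (1.42%) lower at an unadjusted p under 0.05. The fit of both strains together, in which a gene stands out only if its change exceeds the disagreement between the strains, also called 1 gene (0.00706%), and 3306 reached an unadjusted p under 0.05. The called gene was Penk in each case. It was the only gene whose change held in both strains by the rule above. In all 4 matched pairs 1685 genes (11.9%) were higher and 1637 (11.6%) lower at E11, and for 1502 (10.6%) the 4 E11 values did not overlap the 4 E10 values. These shares over all genes are the background for the counts of list members below. They take no account of the signal level of a gene, on which the calls in C57Bl/6 depended. The difference between the 2 strains in the change was itself called for 987 genes (6.97%), of which 969 had the larger change in C57Bl/6 and 436 had opposite signs in the 2 strains.

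The count from both strains together turned on the CD-1 male arrays. Without the CD-1 E10 male 3299 genes were called, without the CD-1 E11 male 1255, without the CD-1 E11 female 17, and without any other array 0. The within-strain count for C57Bl/6 was 1482 without its E10 female, 2494 without its E10 male and 1695 without its E11 female. List counts given below without a C57Bl/6 array stand beside this loss of calls over all genes. The changes of the female and the male pair were alike in C57Bl/6 and were not in CD-1. Across the 14166 genes the correlation between the changes of the 2 pairs was 0.79 in C57Bl/6 and -0.289 in CD-1, where genes are not independent replicates. The CD-1 E11 male array correlated best with the CD-1 E10 female (0.972), above its correlation with the CD-1 E11 female (0.958). The spread of the changes also differed, with an SD over genes of 0.905 in C57Bl/6 and 0.322 in CD-1. The median SE was 0.290 in both, because the fit pooled the residual variance of each gene over both strains. The SE, interval and p-value given for a strain therefore also reflect the spread between the arrays of the other strain. Fits of each strain's arrays alone called 6670 genes in C57Bl/6 and 17 in CD-1, against 5091 and 1 in the pooled fit. Those fits had 1 residual degree of freedom, and limma took the variance of each gene wholly from the trend over genes. Their p-values and counts thus do not reflect a gene's own spread.

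**Figure D1:**
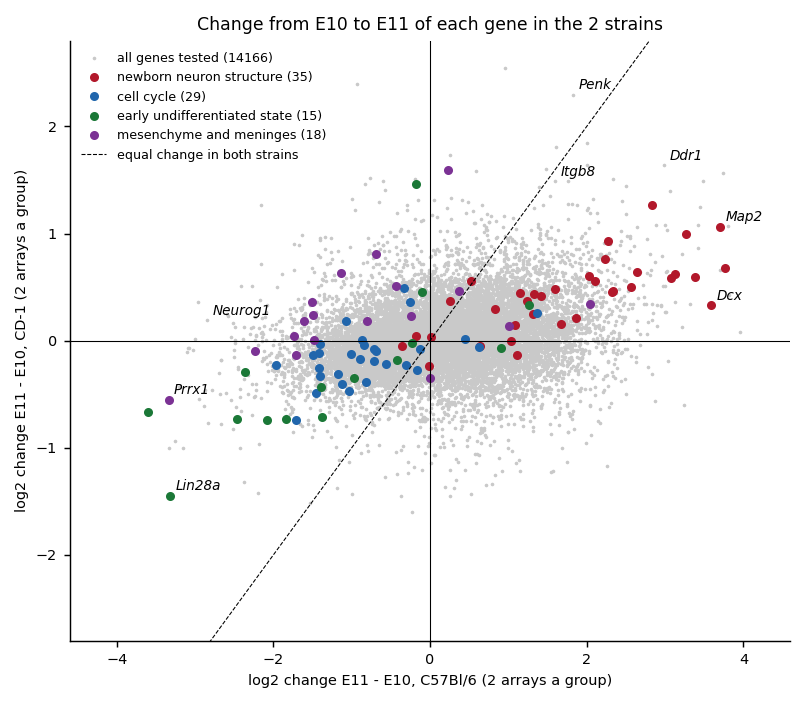
Log2 change from E10 to E11 of each of the 14166 genes in C57Bl/6 (x axis) and in CD-1 (y axis), with members of 4 gene lists coloured and the dashed line marking equal change. Points spread far wider along the C57Bl/6 axis (SD 0.905) than along the CD-1 axis (SD 0.322), newborn neuron genes lie to the right and cell cycle and early undifferentiated genes to the left, and Penk is the called gene with the larger change in CD-1.

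Penk encodes proenkephalin, the precursor of the enkephalin opioid peptides. Its signal was 34.2 and 41.3 in the C57Bl/6 E10 female and male and 170 and 178 at E11, and in CD-1 it was 47.96 and 81.1 at E10 and 398 and 345 at E11. All 4 E11 arrays lay above all 4 E10 arrays, and the CD-1 E11 arrays were the highest. The change was 2.06 ± 0.23 (SE) with both strains together (adjusted p = 0.0494), 1.82 ± 0.30 in C57Bl/6 (adjusted p = 0.000766) and 2.29 ± 0.30 in CD-1 (adjusted p = 0.0434). The adjusted p for both strains together lay between 0.000214 and 0.443 over 22 other settings, and 7 of these called it. In the later arrays the signal in CD-1 was back near its E10 level. Penk signal in CD-1 was 52.2 and 44.3 at E12 and 48.1 and 47.1 at E13, whereas in C57Bl/6 it was 115 and 170 at E12.

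The other 9 genes with the lowest p-values over both strains had adjusted p-values from 0.0505 to 0.0696 and were not called. They moved the same way in all 4 pairs, and Lin28a, Gpm6a and St18 belonged to gene lists used here. Ddr1, a receptor for collagen, stood at 97.7 and 237 in C57Bl/6 and 144 and 138 in CD-1 at E10, and at 1252 and 1412 and 397 and 562 at E11. Itgb8, an integrin subunit, changed by nearly the same amount in each strain, by 1.60 ± 0.25 in C57Bl/6 and 1.49 ± 0.25 in CD-1. The difference between those 2 changes was -0.11 with an adjusted p of 0.856, which does not show that they are equal. Thbs2, a secreted matrix protein, went from 38.6 and 37.2 to 193 and 206 in C57Bl/6 and from 30.6 and 45.6 to 191 and 119 in CD-1. Dimmer probe sets of Thbs2 changed by 0.72 and 0.34 in C57Bl/6, and neither was called. Gpm6a, a neuronal membrane glycoprotein, changed by 2.83 ± 0.23 and 1.27 ± 0.23, and Pak3, a kinase of the neuronal cytoskeleton, by 3.74 ± 0.26 and 1.56 ± 0.26. St18, a zinc finger factor of the Myt family, changed by 3.48 ± 0.30 and 1.49 ± 0.30. Kcnj11, a potassium channel subunit, and Dusp9, a phosphatase that switches off MAP kinases, were lower at E11. Kcnj11 changed by -1.27 ± 0.19 and -0.90 ± 0.19, and Dusp9 by -2.37 ± 0.28 and -1.32 ± 0.28. These genes were picked for their p-values, and their values are a description.

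Lin28a, an RNA-binding protein that holds embryonic cells in an early developmental program, showed the clearest loss. Its signal was 1151 and 1488 in C57Bl/6 and 291 and 320 in CD-1 at E10, and 111 and 123 in C57Bl/6 and 80.7 and 127 in CD-1 at E11. No E11 array reached the lowest E10 array, although the C57Bl/6 arrays started from a far higher level. The change was -3.32 ± 0.22 in C57Bl/6 (adjusted p = 1.51e-06), where it fell 9.96-fold, and -1.45 ± 0.22 in CD-1 (unadjusted p = 1.5e-05, adjusted p = 0.105). A dimmer probe set of Lin28a changed by less, by -1.10 in C57Bl/6 (adjusted p = 0.0107) and by -0.75 in CD-1. At E12 the signal of the brightest probe set lay between 25.9 and 45.8 in the 4 arrays.

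**Figure D2:**
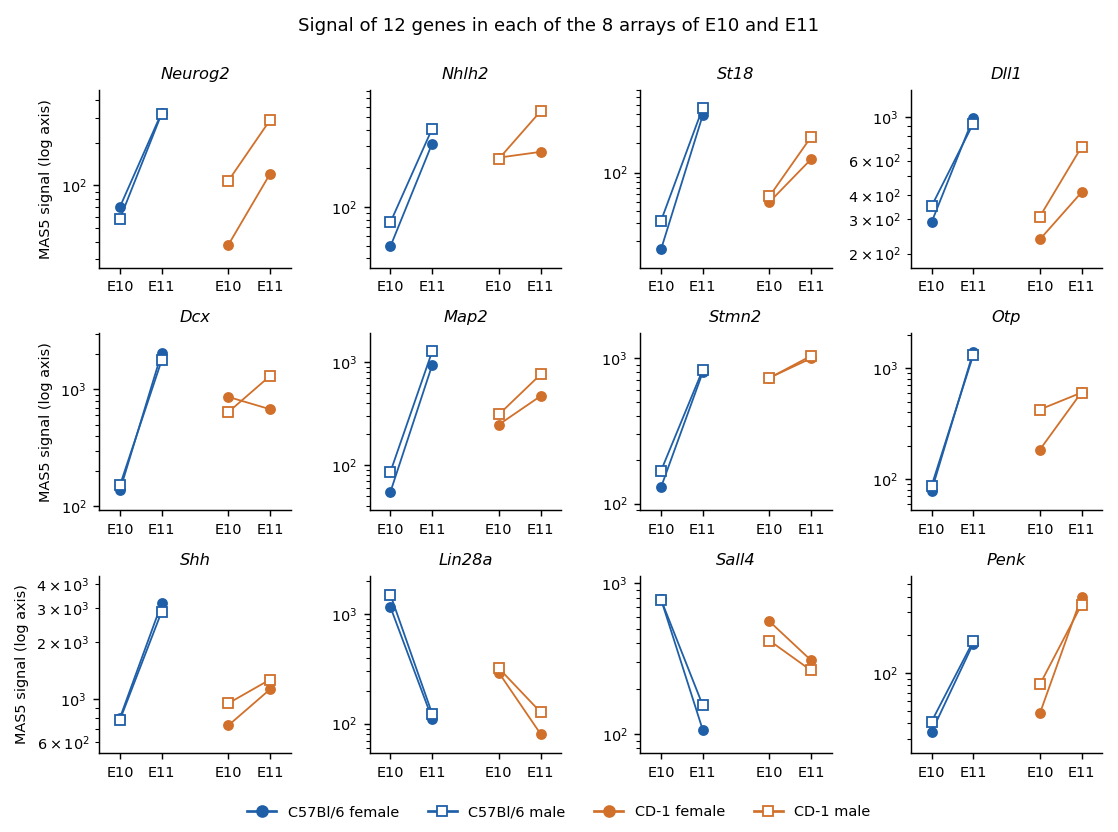
MAS5 signal (log axis) of 12 genes in each of the 8 arrays, with C57Bl/6 on the left and CD-1 on the right of each panel and lines joining the E10 and E11 arrays of the same strain and sex. The C57Bl/6 arrays move steeply and together in every panel, the CD-1 arrays move less except for Penk, and the CD-1 pairs cross for Dcx.

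The gene lists were chosen with earlier results of these data known, so their counts, medians and ranks are a description. Proneural and early differentiation factors formed the list closest to the start of neurogenesis. Of 24 members tested, 14 rose and 3 fell in C57Bl/6, and 12 were higher and 0 lower in all 4 pairs. In CD-1 none was called and 4 lay higher at an unadjusted p under 0.05. The median change was 1.04 in C57Bl/6 and 0.18 in CD-1, against 0.13 and 0.00 over all genes. Without the C57Bl/6 E10 female, 9 rose. The falls numbered 1 without the E10 female, the E10 male or the E11 female.

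Neurog2, a proneural factor that drives neuronal commitment, had a signal of 70.4 and 58.0 in C57Bl/6 and 37.9 and 108 in CD-1 at E10. At E11 it was 326 and 321 in C57Bl/6 and 120 and 289 in CD-1, so all 4 E11 arrays lay above all 4 E10 arrays, the CD-1 female least. It rose 4.24-fold in C57Bl/6 (2.08 ± 0.37, adjusted p = 0.00116). In CD-1 the change was 1.32 ± 0.37 (95% interval 0.53 to 2.11, unadjusted p = 0.00317, adjusted p = 0.677). The strain difference in the change was -0.76 (adjusted p = 0.348). Neurog1, its close relative, went the other way in C57Bl/6, from 272 and 184 to 13.5 and 21.6 (-2.85 ± 0.35, adjusted p = 0.000119). In CD-1 it was 187 and 120 at E10 and 140 and 214 at E11, and the strain difference was called (3.04, adjusted p = 0.00793). On these probe sets the 2 neurogenins thus moved in opposite directions in C57Bl/6, and in CD-1 the 2 pairs of Neurog1 disagreed in sign. Both C57Bl/6 E11 values of Neurog1 lay below the signal under which 20% of their array's probe sets fell (26.4 and 22.7). A dimmer probe set of Neurog1 changed by -0.61 in C57Bl/6, where it was not called, and by -0.84 in CD-1. At E12 Neurog1 was 88.1 and 66.9 in C57Bl/6. St18 and Myt1, zinc finger factors that act with proneural factors, rose in C57Bl/6. St18 went from 16.2 and 31.9 to 386 and 460, and in CD-1 from 49.7 and 56.9 to 137 and 232. Myt1 changed by 2.53 ± 0.35 in C57Bl/6 and by 0.46 in CD-1, with a 95% interval from -0.28 to 1.21. Nhlh2, a helix-loop-helix factor of young hypothalamic neurons, rose from 49.7 and 76.4 to 312 and 407 in C57Bl/6. It stood at 242 and 237 in the CD-1 E10 arrays, above both C57Bl/6 E10 arrays, and at 269 and 555 at E11. Isl1, a LIM factor of early hypothalamic neurons, rose from 371 and 362 to 827 and 1187 in C57Bl/6, but a dimmer probe set of Isl1 changed by 0.37 there and was not called. In CD-1 the brightest probe set of Isl1 was already 1018 and 817 at E10, against 1085 and 857 at E11 (change 0.08, 95% interval -0.39 to 0.55). Bcl11a, a zinc finger factor of neurons that is no member of the list, showed the same shape. It went from 32.2 and 2.93 to 509 and 403 in C57Bl/6 and stood between 328 and 376 in all 4 CD-1 arrays.

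In the Notch pathway, Dll1, Dll3 and Dner rose in C57Bl/6. Dll1, the ligand shown by committing cells, had a signal of 289 and 350 in C57Bl/6 and 236 and 310 in CD-1 at E10, and 992 and 930 and 413 and 706 at E11. It rose in C57Bl/6 (1.55 ± 0.22, adjusted p = 0.000286), and its change in CD-1 was 0.96 ± 0.22 (95% interval 0.49 to 1.43, unadjusted p = 0.000681). All 4 E11 arrays lay above all 4 E10 arrays, and the strain difference in the change was -0.59 (adjusted p = 0.225). Dll3, a ligand-like protein that acts inside the cell, rose in C57Bl/6 from 148 and 173 to 431 and 606. In CD-1 it was 160 and 370 at E10 and 338 and 405 at E11, so the CD-1 E10 male overlapped the E11 arrays. Dner, a Notch ligand of neurons, rose from 46.4 and 31.6 to 215 and 230 in C57Bl/6. Hes1 and Hes5, repressors that Notch signals switch on, were not called on their brightest probe sets. Hes1, a repressor that keeps progenitors dividing, lay between 303 and 447 in all 8 arrays (change 0.11 in C57Bl/6 and 0.20 in CD-1). Hes5 was 175 and 264 in C57Bl/6 and 102 and 256 in CD-1 at E10, and 258 and 244 and 266 and 373 at E11. Its change was 0.20 in C57Bl/6 and 0.89 ± 0.28 in CD-1 (unadjusted p = 0.00712). A dimmer probe set of Hes5 rose in C57Bl/6 (1.35, adjusted p = 0.0052) and changed by 1.15 in CD-1. Id4, an inhibitor of helix-loop-helix factors, rose 10.7-fold in C57Bl/6, from 175 and 166 to 2307 and 1710, and in CD-1 it went from 411 and 548 to 864 and 1210. In CD-1 none of the 26 members was called and 7 lay higher at an unadjusted p under 0.05, against 2.63% of all genes. In all 4 pairs 8 were higher and 3 lower, against 11.9% and 11.6% of all genes. The medians were 0.31 and 0.25 in C57Bl/6 and CD-1. Over the list, 7 of 26 members rose and 0 fell in C57Bl/6, against 18.3% and 17.7% of all genes. The count of 7 was 4 without the C57Bl/6 E10 female and 4 without the C57Bl/6 E10 male.

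Proneural factors bind E-boxes, short motifs of the form CANNTG. The 250 bases upstream of the RefSeq start of Neurog2, Nhlh2, Dll1, Dll3, Otp and Lin28a were searched for 2 E-box forms, CAGCTG and CAGATG, on both strands, where CAGCTG reads the same on both and CAGATG reads CATCTG on the other. Of 32851 upstream windows of this length in the RefSeq table (GRCm38.p6), 13% held CAGCTG and 14.4% held CAGATG, and 25.5% held either. Dll1 has 2 starts in that table, and the window of one of them, chr17:15376933-15377182 (minus strand), held 1 CAGCTG, while the other held neither form. Dll3 (chr7:28301786-28302035, minus strand) held 1 CAGCTG close to the start. Nhlh2 (chr3:102009895-102010144, plus strand) held 1 CAGATG, and Otp (chr13:94875386-94875635, plus strand) 1 CATCTG. Neither form lies in the windows of Neurog2 and Lin28a. The 4 windows with a match are shown, 5′ to 3′ towards the start, with the motif in capitals. All the genes searched moved the same way in all 4 pairs, also Neurog2 and Lin28a. They were picked by no stated rule from the 90 named genes with a window. A match is a description of the letters and not a binding site.
Dll1: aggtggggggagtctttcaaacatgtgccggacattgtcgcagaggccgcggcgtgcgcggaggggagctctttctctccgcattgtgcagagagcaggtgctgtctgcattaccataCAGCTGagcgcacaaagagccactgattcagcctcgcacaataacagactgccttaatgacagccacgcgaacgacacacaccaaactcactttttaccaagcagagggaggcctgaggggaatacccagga
Dll3: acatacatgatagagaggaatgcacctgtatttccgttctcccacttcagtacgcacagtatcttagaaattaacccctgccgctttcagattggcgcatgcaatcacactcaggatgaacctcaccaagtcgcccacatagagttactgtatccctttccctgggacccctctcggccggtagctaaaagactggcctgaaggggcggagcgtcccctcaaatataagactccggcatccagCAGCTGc
Nhlh2: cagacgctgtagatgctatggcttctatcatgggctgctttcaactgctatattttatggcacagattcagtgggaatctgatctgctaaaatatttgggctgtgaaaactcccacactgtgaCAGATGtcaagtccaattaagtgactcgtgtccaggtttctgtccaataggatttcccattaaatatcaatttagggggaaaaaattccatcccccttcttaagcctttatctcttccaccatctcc
Otp: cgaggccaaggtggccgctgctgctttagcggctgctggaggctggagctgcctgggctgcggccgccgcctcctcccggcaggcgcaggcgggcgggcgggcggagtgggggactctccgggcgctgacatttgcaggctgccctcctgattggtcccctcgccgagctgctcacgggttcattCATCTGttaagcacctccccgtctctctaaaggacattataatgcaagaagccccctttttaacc

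Structural genes of newborn neurons had the highest median change of the 25 lists in C57Bl/6. Of 35 members tested, 29 rose and 0 fell there, with a median change of 1.67 against 0.13 over all genes. After quantile normalization, which gives every array the same distribution of values, 29 rose (background 14.1%) and the median was 1.77. In CD-1 none was called, 15 lay higher and 0 lower at an unadjusted p under 0.05, and the median was 0.45. In all 4 pairs 23 were higher and 0 lower. The strain difference was called for 17 of the 35.

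Dcx, a microtubule protein of migrating neurons, shows how the strains differed. In C57Bl/6 it rose 12.0-fold, from 137 and 152 to 2056 and 1775. In CD-1 it was 864 and 641 at E10 and 678 and 1306 at E11, so the E10 female lay above the E11 female (change 0.33, 95% interval -0.24 to 0.90). The strain difference was -3.25 (adjusted p = 0.00148). Map2, a microtubule protein of dendrites, went from 55.2 and 86.5 to 939 and 1273 in C57Bl/6 and from 248 and 311 to 469 and 761 in CD-1. Here all 4 E11 arrays lay above all 4 E10 arrays, with a change of 3.70 ± 0.20 in C57Bl/6 and 1.06 ± 0.20 in CD-1 (unadjusted p = 0.000138). Mapt, the microtubule protein tau, went from 6.87 and 31.6 to 407 and 459 in C57Bl/6 and from 293 and 250 to 396 and 497 in CD-1. Stmn2, a regulator of axon growth, went from 129 and 168 to 794 and 827 in C57Bl/6. In CD-1 it stood at 731 and 728 at E10, close to the C57Bl/6 level of E11, and at 994 and 1033 at E11 (0.47 ± 0.19, unadjusted p = 0.0261). Ina, a neurofilament protein, Celf5, an RNA-binding protein, Stmn3 and Ncam1, a cell adhesion molecule, rose between 8.42-fold and 10.4-fold in C57Bl/6. Their changes in CD-1 ran from 0.59 (Ncam1 and Ina) to 0.99 (Celf5). Rufy3, a protein of axon formation outside the list, had the lowest p for a strain difference (-3.39, adjusted p = 0.000212). It went from 102 and 187 to 2010 and 2331 in C57Bl/6 and from 521 and 840 to 813 and 980 in CD-1. The neuronal RNA-binding proteins Elavl3 and Elavl4 rose in C57Bl/6 by 1.42 ± 0.22 and 1.67 ± 0.26, and their changes in CD-1 were 0.42 and 0.16. Tubb3, the tubulin used most often to mark neurons, was not called in either strain. It changed by 0.52 ± 0.24 in C57Bl/6 and 0.56 ± 0.24 in CD-1, was higher in all 4 pairs, and reached its higher levels of 1494 to 2490 at E12.

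Genes for synaptic vesicles and transmitters also rose in C57Bl/6. There 14 of 20 rose and 0 fell (median 1.21), and 7 were higher in all 4 pairs. In CD-1 the median was 0.44. The count was 9 after quantile normalization and lay between 6 and 9 without any single C57Bl/6 array. Syt1, a calcium sensor of vesicle release, rose from 68.6 and 57.8 to 474 and 544. Gria2, a glutamate receptor subunit, rose from 71.5 and 91.1 to 662 and 440, and Chgb, a granule protein, from 20.6 and 29.5 to 184 and 196. In CD-1 these genes changed by 0.34, 0.30 and 0.64, and the 95% interval of each included 0.

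**Figure D3:**
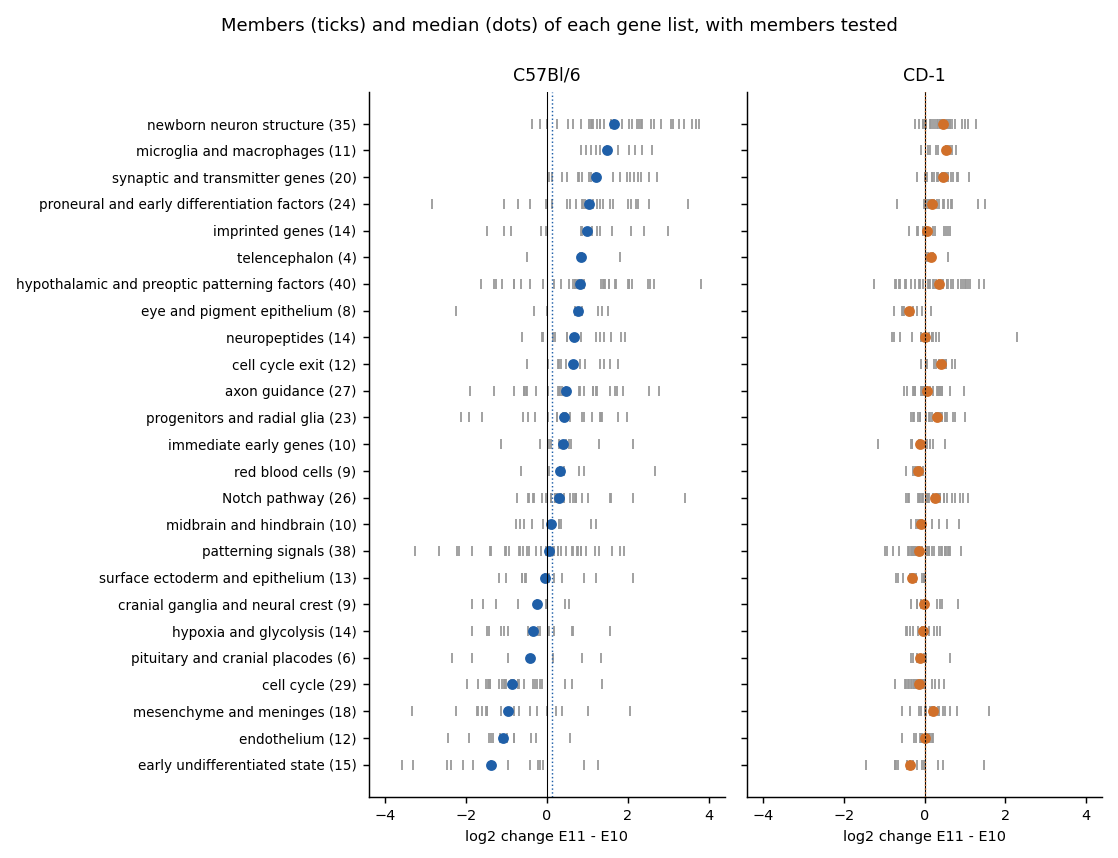
Log2 change from E10 to E11 of the tested members (grey ticks) and the median (dots) of each of 25 gene lists, in C57Bl/6 (left) and CD-1 (right), with the number of members tested in parentheses and the median of all genes as a dotted line. In C57Bl/6 medians run from 1.67 (newborn neuron structure) to -1.38 (early undifferentiated state). In CD-1 they run from 0.52 (microglia and macrophages) to -0.39 (eye and pigment epithelium).

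Genes of the cell cycle fell in C57Bl/6. Of 29 members, 20 fell and 1 rose, with a median of -0.86. In CD-1 the median was -0.13, none was called, 4 lay lower at an unadjusted p under 0.05, and 15 were lower in all 4 pairs against 1 higher. The count of 20 was 17 after quantile normalization (background 16.3%) and 13 without the C57Bl/6 E10 male. Cdc6, which loads the replication helicase, went from 560 and 411 to 103 and 118 in C57Bl/6 and was 288 and 164 at E10 and 161 and 210 at E11 in CD-1. Pole, a subunit of the leading strand polymerase, went from 491 and 534 to 150 and 141 in C57Bl/6 and from 360 and 294 to 152 and 235 in CD-1. Its E10 and E11 arrays did not overlap, and its change was -1.71 ± 0.24 in C57Bl/6 and -0.74 ± 0.24 in CD-1 (unadjusted p = 0.00924). Bub1, a mitotic checkpoint kinase, fell by 1.498 on the log2 scale in C57Bl/6, but another of its probe sets changed by 0.09. Mki67, a marker of dividing cells, was not called. It was 1985 and 1826 at E10 and 2508 and 2703 at E11 in C57Bl/6 (0.45 ± 0.20, adjusted p = 0.0891), and its change in CD-1 was 0.01. Ccnd1, cyclin D1, rose in C57Bl/6 from 1232 and 1716 to 3565 and 3996, and in CD-1 it was 1460 and 1544 at E10 and 1543 and 2093 at E11. Other probe sets of Ccnd1 changed by 0.55 and -0.27 in C57Bl/6, and neither was called.

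Inhibitors of the cell cycle moved the other way. Of 12 members, 6 rose and 0 fell in C57Bl/6, 5 lay higher in CD-1 at an unadjusted p under 0.05, and 7 were higher in all 4 pairs. The medians were 0.64 and 0.41. The count of 6 was 3 without the C57Bl/6 E10 male and 3 without the C57Bl/6 E11 female. Cdkn1b, the kinase inhibitor p27, went from 125 and 148 to 497 and 504 in C57Bl/6 and from 229 and 324 to 360 and 410 in CD-1. All 4 E11 arrays lay above all 4 E10 arrays, and the change in CD-1 was 0.47 ± 0.21 (unadjusted p = 0.0442). Btg2, an antiproliferative gene of neurogenic divisions, rose by 1.56 ± 0.23 in C57Bl/6, and its change in CD-1 was 0.35 with an interval from -0.14 to 0.85.

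Genes of the early undifferentiated state had the lowest median change of the 25 lists in C57Bl/6. Of 15 members, 9 fell and 2 rose in C57Bl/6 (median -1.38), 7 lay lower in CD-1 at an unadjusted p under 0.05 (median -0.35), and 10 were lower and 0 higher in all 4 pairs. Besides Lin28a, Sall4, a zinc finger factor of pluripotent cells, went from 785 and 782 to 107 and 155 in C57Bl/6 and from 560 and 417 to 308 and 264 in CD-1, with no overlap between the ages. Its change in CD-1 was -0.73 ± 0.23 (unadjusted p = 0.00772). Igf2bp1, an RNA-binding protein of the embryo, went from 2065 and 2264 to 739 and 892 in C57Bl/6 and from 1217 and 1126 to 842 and 887 in CD-1. Crabp1, a retinoic acid binding protein, fell 12.1-fold in C57Bl/6, from 1365 and 1710 to 89.3 and 138, and in CD-1 it went from 1450 and 991 to 732 and 764. Hmga2, a chromatin protein of immature cells, was not called on its brightest probe set, with changes of -0.23 ± 0.26 and -0.02 ± 0.26. Of its 3 other probe sets, 1 fell in C57Bl/6 (-1.12, adjusted p = 0.00292) and changed by 0.10 in CD-1. Its signal lay between 864 and 1932 in the 4 arrays of E12.

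Among genes with a fall in C57Bl/6, the same sign in all 4 pairs and an unadjusted p under 0.05 in CD-1 (102 genes), the largest falls in C57Bl/6 also included Slc2a3, Aldh1a3, Prtg, Prrx2, Gas1, Serpinf1, Krt7 and Igdcc3. Slc2a3, a glucose transporter, went from 2890 and 3406 to 245 and 361 in C57Bl/6 and from 926 and 951 to 622 and 340 in CD-1. Prtg, protogenin, a surface receptor of undifferentiated neuroepithelium, went from 1633 and 2285 to 214 and 191 and from 335 and 435 to 168 and 196. Both genes showed no overlap between the ages. Igdcc3, a relative of Prtg, fell by 2.27 on the log2 scale in C57Bl/6, but a second probe set of it rose there by 2.51. The corresponding set of rises held 200 genes. It was led by Otp, Mapt, Pak3, Map2, Ptprz1, St18, Gpr50, Id4, Ncan, Ina, Celf5 and Calb1. Ptprz1, a receptor phosphatase of radial glia and their progeny, went from 65.2 and 80.3 to 1376 and 904 in C57Bl/6 and from 172 and 220 to 484 and 375 in CD-1. Gpr50, an orphan receptor found in the hypothalamus, went from 66.8 and 48.9 to 593 and 1031 and from 80.1 and 92.9 to 204 and 252. Calb1, a calcium-binding protein of neurons, went from 15.0 and 25.4 to 282 and 358 and from 44.8 and 79.2 to 134 and 103. The values chose these genes, so they are a description.

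Genes of progenitors and radial glia were mixed. Of 23 members, 10 rose and 4 fell in C57Bl/6 (median 0.41), and in CD-1 the median was 0.31. The count of 10 was 6 without the C57Bl/6 E10 female, 6 without the E10 male and 6 without the E11 female. Sox2, which maintains neural progenitors, rose from 1035 and 1426 to 3102 and 3140 in C57Bl/6, and in CD-1 it went from 686 and 755 to 868 and 1586 (0.69 ± 0.21, unadjusted p = 0.00601). Sox1 rose by 1.98 ± 0.28 and changed by 1.004 ± 0.28 in CD-1 (unadjusted p = 0.00296). Fabp7, a fatty acid binding protein of radial glia, was not called. Its signal was 519 and 878 in C57Bl/6 and 603 and 791 in CD-1 at E10, and 804 and 1014 and 847 and 1646 at E11, and its change was the larger in CD-1 (0.76 ± 0.20, against 0.41 ± 0.20). Pax6 was not called (-0.48 and -0.34), and a second probe set of it rose by 1.55 in C57Bl/6 (adjusted p = 0.0247). The Id factors split. Id2 and Id3, targets of BMP signals that block differentiation, fell in C57Bl/6 from 1256 and 1541 to 247 and 381 and from 2174 and 1951 to 415 and 681, while Id4 rose. In CD-1, Id2 was 831 and 406 at E10 and 616 and 668 at E11, and the strain difference was called for Id2 (2.26, adjusted p = 0.0104), Id3 (1.80, adjusted p = 0.00828) and Id4 (-2.34, adjusted p = 0.00371).

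Of 40 transcription factors that pattern the hypothalamus and preoptic area, 18 rose and 3 fell in C57Bl/6 (median 0.83). In CD-1, 8 lay higher and 3 lower at an unadjusted p under 0.05 (median 0.37), and in all 4 pairs 18 were higher and 5 lower. With a stricter filter, a mean of at least 7, 11 of the members left rose. The falls numbered 6 after quantile normalization, 5 after median centring, and 1 without the C57Bl/6 E10 female or without the E11 female.

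Otp, a homeodomain factor required for neuroendocrine neurons, rose most. Its signal was 78.0 and 86.4 in C57Bl/6 and 184 and 425 in CD-1 at E10, and 1398 and 1315 and 608 and 604 at E11. No E11 array overlapped an E10 array, and the CD-1 E10 male was the highest of its age. Otp rose 14.0-fold in C57Bl/6 (3.81 ± 0.27, adjusted p = 2.23e-06), and its change in CD-1 was 1.07 ± 0.27 (95% interval 0.49 to 1.65, unadjusted p = 0.00157, adjusted p = 0.577). Nkx2-2, a ventral factor induced by Shh, went from 55.4 and 69.4 to 393 and 494 in C57Bl/6 and from 108 and 169 to 251 and 308 in CD-1, again without overlap. Six3, Six6, Vax1, Nkx2-1 and Hmx3 rose in C57Bl/6 and were not called in CD-1. Six3, which sets up the anterior forebrain, went from 162 and 118 to 539 and 781, and in CD-1 from 130 and 172 to 218 and 179. Six6, a factor of the optic and hypothalamic primordia, went from 113 and 90.3 to 362 and 593, and in CD-1 it was 178 and 84.3 at E10 and 115 and 110 at E11. Vax1, a ventral forebrain factor, rose by 2.65 ± 0.35, with a CD-1 change of 0.10. Nkx2-1, which defines the ventral hypothalamus, rose by 2.02 ± 0.39 from signals near the floor of the array, and its CD-1 change was 0.10 with an interval from -0.74 to 0.94. Hmx3 rose from 10.2 and 17.5 to 116 and 94.99, and in CD-1 it was 20.01 and 30.7 at E10 and 48.6 and 28.8 at E11. The strain difference was called for Six3 (-1.74, adjusted p = 0.0205), Six6 (-2.15, adjusted p = 0.0214) and Vax1 (-2.55, adjusted p = 0.0130), and not for Nkx2-1 (adjusted p = 0.0534) or Hmx3 (adjusted p = 0.125). Lhx1, a LIM factor of the caudal and suprachiasmatic primordium, rose by 2.50 ± 0.46. Lhx5 (0.91 and 0.55), Rax (0.71 and 0.44), which starts retinal and hypothalamic development, and Sim1 (0.69 and -0.04), a partner of Otp in neuroendocrine neurons, were not called in either strain on their brightest probe sets. A dimmer probe set of Sim1 rose in C57Bl/6 (2.34, adjusted p = 0.00751) and changed by 0.76 in CD-1.

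Of 19 neuropeptides with a probe set, 14 were above the filter and tested. Of these, 6 rose and 1 fell in C57Bl/6 (median 0.67), and in CD-1 1, Penk, was called (median 0.01). The count of 6 was 2 without the C57Bl/6 E10 female, 3 without the E10 male and 2 without the E11 female. Pomc, the precursor of melanocortins and the first peptide of the arcuate primordium, rose from 149 and 107 to 379 and 353 in C57Bl/6. In CD-1 it was 121 and 155 at E10 and 217 and 151 at E11 (0.36, 95% interval -0.20 to 0.93). Vip went from 4.402 and 21.7 to 97.2 and 83.7 in C57Bl/6 and lay between 29.3 and 35.8 in all 4 CD-1 arrays. Tac1, the substance P precursor, rose by 1.59 ± 0.39 and reached at most 130.

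Among 38 patterning signals 6 rose and 10 fell in C57Bl/6, against 18.3% and 17.7% of all genes, so the share of rises was no higher than the background, and in CD-1 5 lay higher and 2 lower at an unadjusted p under 0.05. The falls numbered 6 without the C57Bl/6 E10 female and 6 without the E10 male, and the rises 3 without the E10 male and 3 without the E11 female. Shh was 802 and 783 in C57Bl/6 and 732 and 954 in CD-1 at E10, and 3171 and 2874 and 1129 and 1270 at E11. All 4 E11 arrays lay above all 4 E10 arrays. It rose in C57Bl/6 by 1.91 ± 0.19 (adjusted p = 3.09e-05), its change in CD-1 was 0.51 ± 0.19 (unadjusted p = 0.0171), and the strain difference was called (-1.40, adjusted p = 0.0116). In C57Bl/6 its signal was back at 1179 and 1394 at E12. Fgf10, a signal of the infundibular region, rose from 43.6 and 18.8 to 185 and 111 in C57Bl/6 and changed by 0.08 in CD-1, while Fgf15 was not called (-0.44 and -0.14). Aldh1a3 and Cyp26a1, enzymes of retinoic acid metabolism, fell in C57Bl/6. Aldh1a3, which makes the acid, went from 190 and 272 to 10.8 and 8.24 in C57Bl/6 and from 111 and 83.7 to 56.3 and 31.8 in CD-1, without overlap. Cyp26a1, a degrading enzyme, went from 135 and 172 to 13.8 and 27.7 in C57Bl/6 and from 150 and 140 to 96.5 and 115 in CD-1. Gas1, a co-receptor for Shh, fell from 1290 and 1394 to 176 and 221 in C57Bl/6, and in CD-1 it went from 2545 and 2642 to 1831 and 1239 (-0.78 ± 0.21, unadjusted p = 0.0027).

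Guidance receptors were led by Ephb1 and Dcc. Of 27 guidance genes 10 rose and 3 fell in C57Bl/6, and the median in CD-1 was 0.05. The count of 10 was 5 without the C57Bl/6 E10 female, 6 without the E10 male and 5 without the E11 female, and the falls 1 without the E10 female. Dcc, the netrin receptor, went from 39.7 and 83.7 to 359 and 469 in C57Bl/6 and from 35.2 and 113 to 99.4 and 205 in CD-1 (0.98 ± 0.30, unadjusted p = 0.00613). Dimmer probe sets of Dcc changed by 2.70 and 0.28 in C57Bl/6, and the last of these was not called. Ephb1 rose by 2.77 ± 0.24 and changed by 0.64 ± 0.24 in CD-1, and Sema3f, a repellent, fell by 1.91 on the log2 scale and changed by -0.07 in CD-1. Of 14 imprinted genes 8 rose and 3 fell in C57Bl/6, and 1 fell without the E10 female. Dlk1, a membrane protein related to Notch ligands, went from 769 and 851 to 5371 and 8138 in C57Bl/6 and from 2668 and 2609 to 4025 and 4197 in CD-1. Meg3, its linked noncoding RNA, went from 1876 and 1268 to 8104 and 8407 and from 1549 and 1772 to 2395 and 2252. Magel2, a gene of the Prader-Willi region, went from 164 and 137 to 737 and 624 and from 144 and 205 to 304 and 230. The E10 and E11 arrays of Dlk1, Meg3 and Magel2 did not overlap.

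Markers of tissue around the primordium changed in C57Bl/6 beside these genes. Of 18 genes of mesenchyme and meninges, 11 fell and 1 rose there (median -0.97), against a median of 0.21 in CD-1, and the strain difference was called for 12. Their summed signal was 10960 and 12670 in C57Bl/6 at E10 and 4060 and 6164 at E11, and 14750 and 13570 in CD-1 at E10 and 14710 and 16130 at E11. None of the 18 was at 0 in any array. Prrx1, a factor of head mesenchyme, went from 502 and 532 to 38.5 and 34.9 in C57Bl/6 and from 1427 and 810 to 1174 and 451 in CD-1, and 1 of its other probe sets changed by 0.94 in C57Bl/6. Twist1 went from 672 and 945 to 130 and 187 in C57Bl/6 and was 898 and 457 at E10 and 658 and 546 at E11 in CD-1. Col1a1, the main fibrillar collagen, moved against the list, from 78.4 and 81.5 to 378 and 381. Of 12 endothelial genes 8 fell and 0 rose in C57Bl/6 (median -1.08, and 0.00 in CD-1), with summed signals of 3221 and 3271 at E10 and 1296 and 1505 at E11, and 2268 and 2756 and 2161 and 2669 in CD-1. The 8 was 4 without the C57Bl/6 E10 female, 5 without the E11 female and 4 without the E11 male. Cldn5, a junction protein of vessels, went from 515 and 400 to 84.5 and 137. Of 9 genes of cranial ganglia and neural crest, 4 fell, among them Sox10 and Tlx2, and 1 to 2 fell without any single C57Bl/6 array. A dimmer probe set of Sox10 changed by -0.08 in C57Bl/6 and was not called, and another changed by -2.07 and was called. The part of these tissues in the changes of the other lists was not tested.

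Markers of microglia and macrophages, cells that enter the brain from outside, rose in C57Bl/6. Of 11 genes, 9 rose and 0 fell there (median 1.497, and 0.52 in CD-1), and 8 were higher in all 4 pairs. The count was 6 after quantile normalization, 3 without the C57Bl/6 E10 female and 3 without the E11 female. Their summed signal was 349 and 386 in C57Bl/6 at E10 and 1629 and 1537 at E11, and 990 and 1214 in CD-1 at E10 and 1383 and 1735 at E11. Csf1r, the receptor that sustains these cells, was 115 and 101 in C57Bl/6 and 268 and 419 in CD-1 at E10, and 556 and 540 and 515 and 547 at E11. Its E10 and E11 arrays did not overlap, with changes of 2.19 ± 0.23 and 0.64 ± 0.23. Ctss, a lysosomal protease, went from 6.22 and 12.0 to 123 and 147 in C57Bl/6 and from 61.4 and 56.0 to 67.7 and 90.9 in CD-1. Of 9 red cell genes 3 rose and 1 fell in C57Bl/6. The rises numbered 5 after quantile normalization and 1 without the C57Bl/6 E10 female, the E10 male or the E11 female, and the fall was lost without any single C57Bl/6 array. Embryonic globin Hbb-bh1 lay between 5765 and 14260 in the 8 arrays and was not called, and Slc4a1, the red cell anion exchanger, rose from 248 and 231 to 1970 and 1329 in C57Bl/6 and lay between 263 and 299 in all 4 CD-1 arrays. Of 14 glycolytic and hypoxia genes, 6 fell and 2 rose in C57Bl/6 (0 rose without the E10 female, the E10 male or the E11 female), and their sum was 33130 and 28590 at E10 and 17060 and 17010 at E11, against 19240 and 16630 and 16780 and 14140 in CD-1. Ldha, lactate dehydrogenase, went from 10270 and 8959 to 2281 and 3012 in C57Bl/6 and from 5201 and 4836 to 3971 and 3492 in CD-1.

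The remaining lists of neighbouring tissue held small counts in C57Bl/6, most of which turned on single arrays. Over all genes 18.3% rose and 17.7% fell there, and the counts in this paragraph are a description beside those shares. Of 13 genes of surface ectoderm 2 rose and 2 fell, and all 13 had a change below 0 in CD-1, where 49.4% of all genes did. The rises were 0 without the C57Bl/6 E10 female or the E11 female, and the falls 0 without the E10 male or the E11 female. Of 8 genes of the eye and pigment epithelium 2 rose, Crx and Tyr, and 1 fell, Mab21l1. Neither rise was called without the C57Bl/6 E10 female or the E11 female, and Tyr was not called after quantile normalization (adjusted p = 0.111). Of 6 genes of the pituitary and cranial placodes 1 rose, Lhx4, and 3 fell, among them Eya2, which went from 92.0 and 110 to 8.64 and 5.32 and lay between 92.4 and 141 in CD-1. Lhx4 was not called without any single C57Bl/6 array, and 1 gene fell without the E10 male. Of 4 telencephalic genes 1 rose, Eomes, which was not called without the C57Bl/6 E11 female, and the 10 midbrain and hindbrain genes had median changes of 0.09 in C57Bl/6 and -0.09 in CD-1. Of 10 immediate early genes Fos and Jun rose and Ier2 fell in C57Bl/6. There was 1 rise without the E10 female or the E11 male, and no fall without the E11 female.

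In C57Bl/6 the change of a gene depended on its level. Over 5 bins of equal size, from the dimmest to the brightest genes, the median change was 0.76, 0.57, 0.08, -0.22 and -0.37, while in CD-1 it lay between -0.07 and 0.05. As deposited, 676 of 2834 genes rose and 70 fell in the dimmest bin, and 284 of 2833 rose and 1102 fell in the brightest. The all-gene shares set beside the lists are therefore no like background for a list of mostly bright or mostly dim genes. After quantile normalization 249 rose and 151 fell in the dimmest bin, and 536 and 717 in the brightest. The C57Bl/6 medians of the bins then lay between -0.10 and 0.15. The median over all genes went from 0.13 as deposited to 0.00 in C57Bl/6. Of the C57Bl/6 calls, 50.9% were higher at E11 as deposited, 46.4% after quantile normalization, 41.9% after centring each array on its median and 33.6% with the stricter filter. Quantile normalization called 2000 genes higher (14.1%) and 2311 lower (16.3%) in C57Bl/6, and 3605 (70.8%) of the calls on the deposited values were called again with the same sign. No gene named above as risen or fallen in C57Bl/6 had the opposite sign after quantile normalization.

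**Figure D4:**
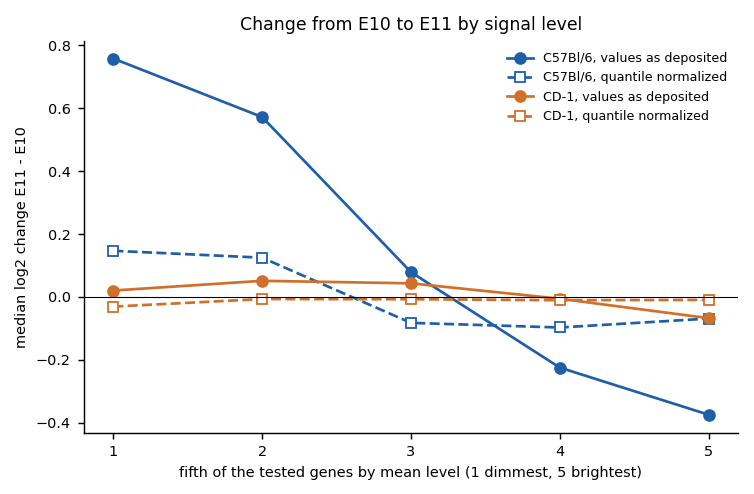
Median log2 change from E10 to E11 in each of 5 bins of equal size by mean level (dimmest to brightest), in C57Bl/6 and CD-1, on the values as deposited (filled) and after quantile normalization (open). In C57Bl/6 the deposited values run from 0.76 in the dimmest to -0.37 in the brightest bin, and after normalization the medians lie between -0.10 and 0.15.

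The genes that changed in C57Bl/6 leaned the same way in CD-1 by a small amount. Of the 2590 genes that rose in C57Bl/6, 1745 (67.4%) had a change above 0 in CD-1, where 50.6% of all genes did, and 849 (32.8%) were higher in all 4 pairs. Their median change was 1.35 in C57Bl/6 and 0.14 in CD-1. Of the 2501 that fell, 1785 (71.4%) had a change below 0 in CD-1, where 49.4% of all genes did, and 991 (39.6%) were lower in all 4 pairs. Their medians were -0.998 and -0.12. Both sets were chosen for their C57Bl/6 change, which largely fixes the C57Bl/6 pairs in advance. The counts over 4 pairs therefore rest on the CD-1 pairs, and the all-gene shares of 11.9% and 11.6% are no like background.

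The 2 strains were already unlike at E10. At that age 4047 genes (28.6%) had both CD-1 arrays above both C57Bl/6 arrays, and 3282 (23.2%) had both below. Of the 35 newborn neuron genes 27 stood above and 2 below, of the 24 proneural genes 11 and 2, and of the 11 microglial genes 10 and 0. Of the 29 cell cycle genes 2 stood above and 22 below, and of the 15 genes of the early undifferentiated state 0 and 9. At E10 the median difference between the strains (CD-1 minus C57Bl/6, log2) was 0.85 for the newborn neuron list and -0.43 for the cell cycle list, and at E11 it was -0.43 and 0.37. The 2 groups of CD-1 arrays were next placed between the C57Bl/6 arrays. For the 2023 genes that rose at least 2-fold in C57Bl/6, 0% was set at the mean of its E10 arrays and 100% at the mean of its E11 arrays. The median place of the CD-1 E10 arrays was 28.8% (female) and 56.7% (male), and that of the CD-1 E11 arrays 63.4% and 38.6%. For the 1246 genes that fell at least 2-fold, it was 19.9% and 34.3% at E10 and 43.3% and 34.0% at E11. The genes were selected on the arrays that define 0% and 100%, which by itself draws other arrays between them, so these places are a description. The CD-1 E11 male lay below the CD-1 E10 male for both sets. Litter, dissection, array processing and embryo stage at collection are not given per array in the sources used here, so strain and these cannot be told apart.

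The next ages show which of these levels went on in the same direction. In CD-1, Dcx was 2604 and 5431 at E12, Neurog2 1066 and 665, Map2 2307 and 2698, Otp 1948 and 2041 and Gpm6a 3122 and 3530, each above all 4 arrays of E10 and E11 of that strain. In C57Bl/6 at E12 Dcx was 4168 and 3995, Neurog2 936 and 876 and Otp 3044 and 3390. Sall4 lay between 22.4 and 49.9 in the 4 arrays of E12. For the falling set above, the CD-1 arrays of E12 lay at 65.6% and 81.3% of the way between the C57Bl/6 means of E10 and E11. For the rising set they lay at 45.6% and 50.7%, between the places of the CD-1 E11 arrays. The C57Bl/6 arrays of E12 lay at 76.3% and 75.3% for the rising set, short of the E11 mean. For the falling set they lay at 90% and 91.3%. The C57Bl/6 arrays of E13 lay at 96.7% and 88.1% for the rising set and at 109% and 107% for the falling set. The selection described above also acts on these places. The levels after E11 are a description and were not tested.

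**Figure D5:**
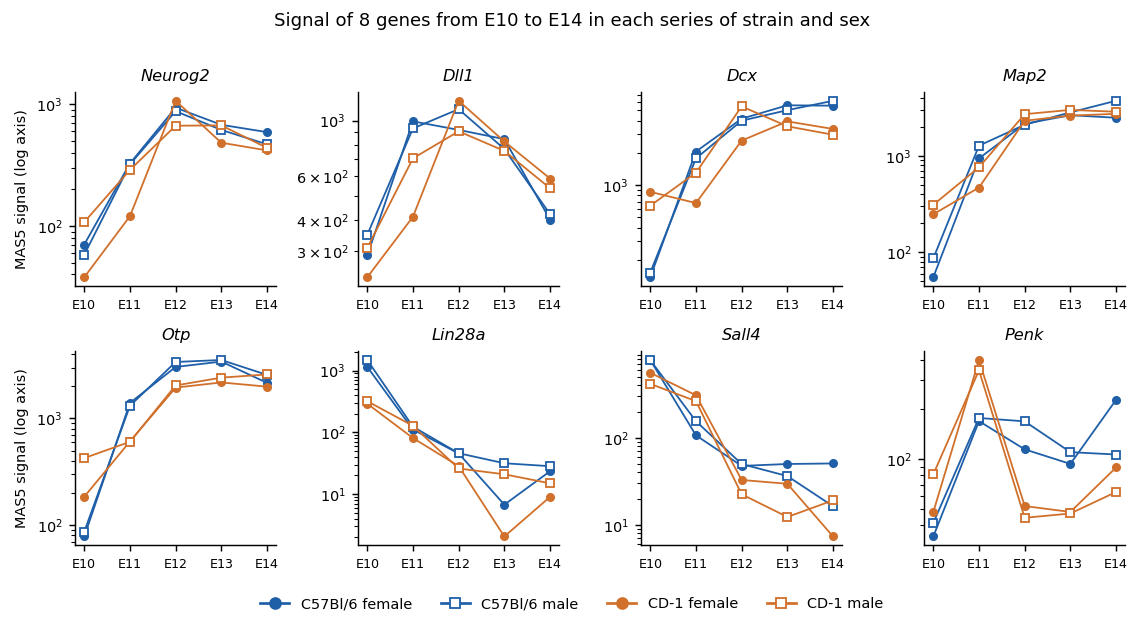
MAS5 signal (log axis) of 8 genes from E10 to E14 in each series of strain and sex. Dcx, Map2 and Otp are higher at E12 than at E10 in every series, with the C57Bl/6 arrays starting lower at E10, while Lin28a and Sall4 go down and Penk peaks at E11 in CD-1 (398 and 345) before returning to 52.2 and 44.3 at E12.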

How the data were processed

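RNA of microdissected mouse hypothalamus with the preoptic area was measured on Affymetrix MOE430 arrays. The authors deposited MAS5 signal, a linear intensity per probe set, made with GCOS 1.4 and MAS5 per the submitters' processing notes. Each array has the same trimmed mean, and scaling by a mean lets medians differ. Of 45101 probe sets, 34945 had 1 gene symbol in the platform annotation, 932 had several and 9160 none, and those without a single symbol were not used. For each of 18193 symbols the brightest probe set over the 8 arrays was taken.

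Values were analysed as log2(signal + 16) in limma 3.58.1 (R 4.3.3; lmFit, eBayes with trend). Genes with a mean of at least 5.5 were kept. One fit had age, strain and sex. The other had a term for each age and strain, and sex, with contrasts for the change in C57Bl/6, in CD-1 and their difference. All tests were two-sided. The fits were tested on simulated data. The precision stated rests on the number of arrays and on the spread between them, pooled over the strains and moderated over genes by limma. Arrays give no counts, so no count depth enters it.

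The 25 lists hold 498 genes, of which 463 could be matched to a probe set and 430 passed the filter. The members and lists were chosen with earlier results of these data known. Named genes were Penk, the only change that held in both strains, up to 3 called members with the largest C57Bl/6 change per list, a set of key genes, and the 8 lowest p-values for a strain difference. Further sets were chosen after values were seen. These were the 12 largest C57Bl/6 rises and 12 falls with the same sign in all 4 pairs and an unadjusted p under 0.05 in CD-1, and the 10 lowest p-values over both strains. Upstream windows came from RefSeq (GRCm38.p6), and 90 of 122 named genes had one. Alternatives changed the pseudocount, filter, normalization, samples, covariates, weights and probe set.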

Additional observations from a re-analysis of the deposited data

Results flagged for a closer look

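In 6 of the 244 groups of 4 arrays checked (each named gene at each age), 1 array stood apart from the other 3 by Dixon's criterion at the 95% level, where chance gives about 1 in 20 groups. At E10 the CD-1 male was the highest for Dll3 (369.9) and Pak3 (145). At E11 the CD-1 female was the lowest for Neurog2 (120.3) and Lhx1 (33.55). At E11 the CD-1 male was the highest for Pole (234.5) and the lowest for Thbs2 (118.8). All 6 values came from CD-1 arrays.

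The change from E10 to E11 differed between the strains for 987 genes by limma's contrast of the 2 changes (Benjamini-Hochberg adjusted p under 0.05), and 71 of these are genes named here. Each value below is the CD-1 change minus the C57Bl/6 change on the log2 scale. First come the genes that rose in C57Bl/6. The difference was negative for Bcl11a (-3.88), Btg2 (-1.20), Calb1 (-2.41), Ccnd1 (-1.11), Cdkn1b (-1.29) and Celf5 (-2.28). Further values below 0 belonged to Col1a1 (-1.70), Csf1r (-1.55), Ctss (-2.25), Dcc (-1.54), Dcx (-3.25) and Ddr1 (-1.35). Below 0 were also Dlk1 (-2.37), Elavl4 (-1.51), Ephb1 (-2.14), Fos (-1.99), Gpm6a (-1.56) and Gpr50 (-2.20). Likewise lower in CD-1 was the change of Gria2 (-2.23), Id4 (-2.34), Ina (-2.78), Isl1 (-1.32), Krt5 (-2.16) and Magel2 (-1.49). The difference was negative for Map2 (-2.63), Mapt (-3.08), Meg3 (-1.93), Myt1 (-2.07), Ncam1 (-2.49) and Ncan (-2.56). Further values below 0 belonged to Nhlh2 (-1.60), Nkx2-2 (-1.59), Otp (-2.74), Pak3 (-2.18), Ptprz1 (-2.61) and Rufy3 (-3.39). Below 0 were also Shh (-1.40), Six3 (-1.74), Six6 (-2.15), Slc4a1 (-2.71), St18 (-1.99) and Stmn2 (-1.87). Likewise lower in CD-1 was the change of Stmn3 (-2.51), Syt1 (-2.39) and Vax1 (-2.55). Next come the genes that fell in C57Bl/6. The difference was positive for Aldh1a3 (2.32), Bub1 (1.37), Cdc6 (1.75), Cldn5 (1.82), Crabp1 (2.93) and Cyp26a1 (1.82). Further values above 0 belonged to Eya2 (2.07), Gas1 (1.89), Id2 (2.26), Id3 (1.80), Igdcc3 (1.58) and Igf2bp1 (0.96). Above 0 were also Ldha (1.44), Lin28a (1.87), Neurog1 (3.04), Pdk1 (1.32), Prrx1 (2.79) and Prrx2 (2.06). Likewise higher in CD-1 was the change of Prtg (2.15), Ramp2 (1.57), Sall4 (1.73), Sema3f (1.84), Serpinf1 (1.98) and Slc2a3 (2.33). The difference was positive for Tlx2 (1.39) and Twist1 (2.15). In all 71 the CD-1 change lay on the side of a smaller change or of the opposite sign.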

How the results depend on the processing

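The counts of called genes depended strongly on the settings. For both strains together the count of 1 became 0 with a pseudocount of 1 or 64, no filter, the filter on array medians, median centring, quantile normalization (also with the 4 series as a block), the series as a block, eBayes without trend, the beta-actin ratio as a covariate and the second probe set. It was 36 without the sex term, 4139 in the fit of all 48 arrays and 4458 with array quality weights. Leaving out each array in turn gave 0 to 3299. In C57Bl/6 the count of 5091 was 2582 with the beta-actin covariate, 1942 with the second probe set and 1482 to 6551 without each array. In CD-1 the count of 1 was 0 with a pseudocount of 1, no filter, the filter on array medians, quantile normalization, array weights, no trend, the beta-actin covariate and the second probe set, 50 with all 48 arrays, 17 with the CD-1 arrays alone and 0 to 9 without each array. The strain difference, 987 genes, was called for 3739 with all 48 arrays, 0 without trend (3477 at an unadjusted p under 0.05 by limma), 300 with the beta-actin covariate, 270 with the second probe set and 64 to 3423 without each array. Without the CD-1 E10 female it was 3423, and without the C57Bl/6 E10 female 64. The cause of these shifts was not tested.

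With the second probe set the C57Bl/6 change had the opposite sign for Bub1 (0.0919), Igdcc3 (2.51), Pax6 (1.55) and Prrx1 (0.94), and of 116 other probe sets of named genes called in C57Bl/6 111 had the same sign. Having the same sign is not a call, and some of these probe sets, such as those of Isl1 and Thbs2, were not called. Penk was called in C57Bl/6 in 21 of 21 settings and in CD-1 in 9 of 21, with an adjusted p from 1.6e-05 to 0.55. The lowest CD-1 p of Penk came from the CD-1 arrays alone, a fit with 1 residual degree of freedom that uses no spread of the gene itself. The next lowest adjusted p by limma was 0.00714, in the fit of all 48 arrays. The fits with the CD-1 or C57Bl/6 arrays alone and the quantile fit with a block were added after the data were seen. The labels carry no replicate numbers, so the paired fit took the 4 series of strain and sex as its block, and 2598 genes reached an unadjusted p under 0.05 in it by limma. With 2 arrays per strain and age, a change in CD-1 that missed the threshold is not shown to be absent, and dim signals near the floor limit folds.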
